A study of Mus musculus with 5 samples.

Results

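Described here are 10 genes of the MHC class I pathway in invariant natural killer T (iNKT) cells of mouse liver. They were taken by symbol from the 55364 Ensembl gene rows of the count tables. H2-K1 and H2-D1 encode the classical heavy chains, and H2-Q4, H2-Q7, H2-T22 and H2-T23 encode non-classical heavy chains. B2m encodes the light chain beta-2 microglobulin, Tap1 and Tap2 the 2 chains of the peptide transporter, and Tapbp the chaperone tapasin. All 10 symbols had a single row in each table, and all 10 passed the filter on low counts. The 3 HCC libraries came from WT male C57BL/6 mice given 25 mg/kg of diethylnitrosamine (DEN), a liver carcinogen, intraperitoneally at 15 days of age, which carried hepatocellular carcinoma. The 2 healthy libraries came from healthy livers of WT mice given PBS. Exposure to DEN and the presence of tumour cannot be told apart in this design. Livers were collected at 38 to 42 weeks of age per the labels; 1 protocol is given for all samples. The cells were sorted as positive for a CD1d tetramer loaded with PBS57 and for TCRb, and 3' mRNA libraries were sequenced. The labels list separate samples without saying that each came from its own mouse, so p-values measure the spread between these samples.

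MHC class I molecules sit on nearly all nucleated cells and show peptides from inside the cell to CD8 T cells. A heavy chain folds in the endoplasmic reticulum with beta-2 microglobulin, receives a peptide that TAP has pumped in from the cytosol, and is held by tapasin until the peptide binds. iNKT cells themselves recognise lipids on CD1d, a class I-like molecule that also pairs with beta-2 microglobulin, and they carry class I on their surface like other lymphocytes.

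The mouse class I heavy chain genes are close copies of each other, and their coding sequence shows how far the rows can be told apart. In the longest annotated coding sequences, 21.7% of the 31-base words of H2-K1 also occurred in H2-D1, and 22.1% of those of H2-D1 in H2-K1. The longest run that H2-K1 and H2-D1 have in common was 91 bases, from base 738 of the H2-K1 and base 747 of the H2-D1 coding sequence, and H2-Q7 holds the same run from base 738. It is shown because no read within it can be assigned to 1 of these 3 genes.
Coding run common to H2-K1, H2-D1 and H2-Q7: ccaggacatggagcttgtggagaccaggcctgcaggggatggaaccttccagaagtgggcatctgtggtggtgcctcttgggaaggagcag
Longer common runs were found between H2-D1 and H2-T23 (145 bases), between H2-T22 and H2-T23 (131 bases) and between H2-D1 and H2-Q7 (130 bases). Since 3' libraries read transcript ends, the last 300 bases of each member's annotated transcripts were also searched against the whole transcripts of all other genes. Of the 31-base words there, 27.2% in H2-K1, 39.1% in H2-D1, 43.1% in H2-Q4, 42.6% in H2-T22 and 30.98% in H2-T23 also occurred in another gene, against 0.971% in H2-Q7. These shares depend on the window and the word length: over the last 500 bases H2-Q7 shared 17.4%, and with 50-base words over 300 bases H2-K1 shared 14.1%, H2-D1 19.4%, H2-Q4 28.5%, H2-T22 26.0%, H2-T23 20.5% and H2-Q7 0%. For H2-D1 the gene with most of them was H2-K1 (20.3%), and for H2-T22 it was H2-T10 (41.7%), annotated as a polymorphic pseudogene. For H2-Q4 it was Gm43321 (19.1%), and for H2-T23 it was Rab33b (12.3%), which is no class I gene. The end words of B2m and Tap2 occurred in no other gene, and 4.05% of those of Tap1 occurred elsewhere in Tap2 transcripts and 3.72% of those of Tapbp in Zbtb22. H2-K1, H2-D1, H2-Q4, H2-T22 and H2-T23 are thus uncertain as single measurements, and H2-Q7 less so near its end, whereas B2m, Tap1, Tap2 and Tapbp share little.

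**Figure D1:**
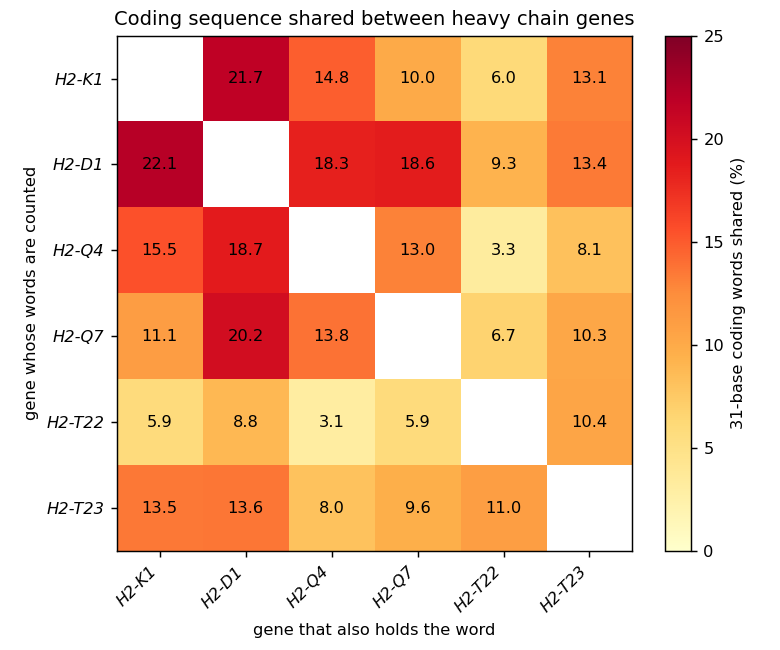
Share of the 31-base coding words of each class I heavy chain gene (rows) that also occur in the coding sequence of another (columns), in percent. The pair H2-K1 and H2-D1 shares most, at 21.7% and 22.1%, and H2-T22 and H2-Q4 share least.

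RefSeq promoters (GRCm38.p6, 250 bases before to 50 after a start site) were found for 9 of the 10 genes. They are shown for 5 genes because exact matches to letters that known class I regulators bind differ between the genes whose rows are compared below. NF-kB binds the kB site of class I promoters, interferon regulatory factors bind the interferon-stimulated response element (ISRE), and CREB/ATF and NF-Y bind the CRE and CCAAT letters of the module on which NLRC5, the class I transactivator, acts. Capitals mark 4 motifs searched on both strands: the 10-base kB site (the longest capital run in the H2-K1 and H2-D1 promoters), the ISRE core (TTTC, 2 unspecified bases, TTTC), the CRE core TGACG and the CCAAT box.
H2-K1 promoter, chr17:34000298-34000597, - strand: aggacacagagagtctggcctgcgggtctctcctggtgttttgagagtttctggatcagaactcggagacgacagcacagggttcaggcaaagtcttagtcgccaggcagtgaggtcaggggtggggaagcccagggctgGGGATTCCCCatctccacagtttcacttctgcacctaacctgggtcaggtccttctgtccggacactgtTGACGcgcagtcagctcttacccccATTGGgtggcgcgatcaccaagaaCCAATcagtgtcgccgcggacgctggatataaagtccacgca
H2-D1 promoter, chr17:35262844-35263143, + strand: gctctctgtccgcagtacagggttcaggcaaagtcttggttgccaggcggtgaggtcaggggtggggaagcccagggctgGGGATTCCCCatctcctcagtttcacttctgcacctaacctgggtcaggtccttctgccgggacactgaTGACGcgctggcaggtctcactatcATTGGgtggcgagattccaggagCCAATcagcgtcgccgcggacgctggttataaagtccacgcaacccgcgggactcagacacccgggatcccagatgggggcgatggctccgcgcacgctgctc
H2-Q7 promoter, chr17:35438905-35439204, + strand: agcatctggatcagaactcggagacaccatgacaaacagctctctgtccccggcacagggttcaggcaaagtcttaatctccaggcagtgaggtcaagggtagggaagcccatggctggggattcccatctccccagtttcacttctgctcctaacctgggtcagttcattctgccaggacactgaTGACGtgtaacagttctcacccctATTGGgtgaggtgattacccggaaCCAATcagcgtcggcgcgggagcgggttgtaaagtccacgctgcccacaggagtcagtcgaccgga
H2-T23 promoter, chr17:36032652-36032951, - strand: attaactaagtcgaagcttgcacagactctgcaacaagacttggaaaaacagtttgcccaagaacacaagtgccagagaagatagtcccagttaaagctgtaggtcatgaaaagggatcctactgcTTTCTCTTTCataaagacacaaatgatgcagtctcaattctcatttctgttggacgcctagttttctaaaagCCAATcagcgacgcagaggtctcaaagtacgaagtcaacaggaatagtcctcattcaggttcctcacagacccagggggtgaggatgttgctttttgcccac
B2m promoter, chr2:122147437-122147736, + strand: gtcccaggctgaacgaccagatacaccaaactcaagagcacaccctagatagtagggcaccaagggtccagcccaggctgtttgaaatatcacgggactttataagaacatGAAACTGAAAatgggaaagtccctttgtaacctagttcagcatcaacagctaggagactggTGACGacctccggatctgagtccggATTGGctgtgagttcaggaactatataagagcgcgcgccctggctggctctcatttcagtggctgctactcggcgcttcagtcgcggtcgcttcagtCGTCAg
The exact kB letters stood in the promoters of 2 of the 9 genes, H2-K1 and H2-D1, and in 0.0852% of all 32851 promoters of this length. The near forms ggggattccc in H2-Q7 and ggggatttcc in H2-Q4, and the related letters gggaaagtccc in B2m, were not counted. These 3 promoters are therefore not shown to lack a kB site. The ISRE core as searched stood in 3 of 9, H2-T22, H2-T23 and B2m (3.44% of all). The H2-K1, H2-D1, H2-Q4 and H2-Q7 promoters hold the near form tttcacttct, which the search did not count. They are therefore not shown to lack such an element. TGACG stood in 7 of 9 (20.8% of all) and CCAAT in 9 of 9 (37.4% of all). No 2 of the marked motifs overlap in the promoters printed. A match is a description of the letters and not of binding.

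Library totals were 1718452 to 1883979 counts in HCC and 2224356 and 1821863 counts in healthy libraries 1 and 2. Levels are given as CPM, each row's count scaled to its table's own total. A count of 0 allows up to 1.35 to 1.75 CPM, and such limits cover counting error only. The limit of 1.35 CPM is that of healthy 1 and assumes that each count there is 1 read, which may not hold. Healthy 1 stood apart: its Pearson r with the other libraries, across 8468 genes of log2 CPM, was 0.736 to 0.796, whereas the other 4 had 0.825 to 0.890 with each other (genes are not independent replicates). The deposited names of the HCC 2 and HCC 3 tables share a number, while the labels list them as separate samples. If these libraries shared a mouse, the 3 HCC values would not be independent. Of 11 T and iNKT cell markers all had a row, and their sum was 5187 to 5936 CPM in HCC and 4572 and 5637 CPM in healthy libraries. Trac was at 627, 545 and 803 CPM in HCC 1, 2 and 3 and 488 and 672 CPM in healthy 1 and 2, and Cd3e was at 183, 178 and 283 CPM in HCC 1, 2 and 3 and 187 and 246 CPM in healthy 1 and 2. Cd3d was at 527, 461 and 416 CPM in HCC 1, 2 and 3, against 572 and 679.5 CPM in healthy 1 and 2, so the HCC values lay below both. Klrb1c, which encodes NK1.1, split both groups, at 465, 20.9 and 333 CPM in HCC 1, 2 and 3, against 382 and 5.49 CPM in healthy 1 and 2. In both groups it was high in the library numbered 1 and low in that numbered 2. Zbtb16, which encodes the iNKT factor PLZF, was at 0 to 1.16 CPM in HCC and 1.35 and 1.65 CPM in healthy libraries, at or below the limit that a count of 0 allows.

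All 10 genes had counts in all 5 libraries, but H2-Q4 had only 9 to 24 a library and H2-T23 only 3 in healthy 1. The 10 genes together held 0.767, 0.869 and 0.794% of all counts in HCC 1, 2 and 3, against 0.626 and 0.670% in healthy 1 and 2. For B2m and Tap2 the 3 HCC values exceeded both healthy values (2 of 10 members, where 12.8% of all genes tested were placed so and 5.46% the other way round). The other 8 members overlapped between the groups, and no member passed the test of HCC against healthy. With edgeR's quasi-likelihood test 0 of the 10 members were called, in a comparison that called 0% of 8468 genes (adjusted p = 0.9999 for each member). At an unadjusted p under 0.05 there were 0 of 10 members and 3.63% of all genes. DESeq2 called 0 of the 10 and 0.0945% of all genes, and at an unadjusted p under 0.05 it had 0 of the 10 and 4.2% of all genes. limma-voom called 0 of the 10 and 0% of all genes, and at an unadjusted p under 0.05 it had 2 of the 10, H2-T23 and Tap2, and 2.46% of all genes. Of the 10 log2 fold changes 5 were positive and 5 negative, and their median was 0.09, against 0.0046 over all genes tested. In bulk libraries fewer cells that express a gene and less RNA per cell cannot be told apart.

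**Figure D2:**
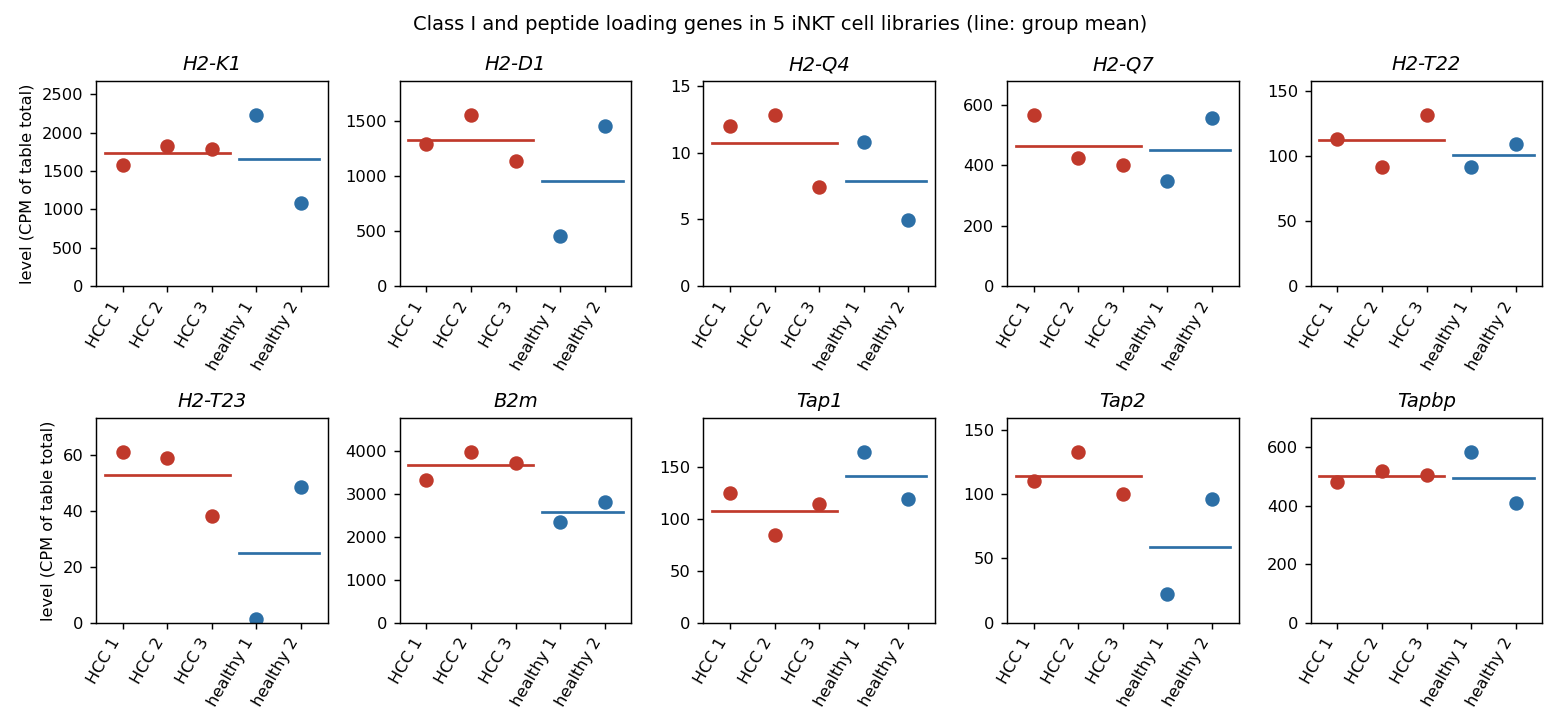
Level of each of the 10 genes (CPM of the table total, linear axes from 0) in the 3 HCC libraries (red) and the 2 healthy libraries (blue), with lines at the group means. The HCC libraries lie above both healthy libraries for B2m and Tap2, and the groups overlap in the other 8 panels.

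H2-K1 (ENSMUSG00000061232, chromosome 17, 33996017 to 34000347, minus strand; positions are mm10) encodes the heavy chain K, which presents peptides to CD8 T cells. It was at 1579, 1829 and 1780.3 CPM in HCC 1, 2 and 3, against 2226 and 1088 CPM in healthy 1 and 2. The healthy libraries were the highest and the lowest of the 5, so the groups overlapped. The fitted log2 fold change was -0.18 (SE 0.42, 95% interval -1.13 to 0.76). It was -0.65 without healthy 2 and 0.64 without healthy 1, so its sign followed whichever healthy library was kept.

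H2-D1 (chromosome 17, 35262730 to 35267499, plus strand) encodes the other classical heavy chain of these mice, D. It was at 1292, 1555 and 1138 CPM in HCC 1, 2 and 3, against 456 and 1458 CPM in healthy 1 and 2. Healthy 1 was the lowest of the 5 and healthy 2 lay inside the HCC range. The fitted log2 fold change was 0.36 (SE 0.43, 95% interval -0.60 to 1.33). It was 1.25 without healthy 2 (adjusted p = 0.0803 in edgeR) and -0.17 without healthy 1.

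H2-K1 and H2-D1 thus departed in opposite directions in healthy 1, and their sum did not. Together they were at 2871, 3384 and 2918 CPM in HCC 1, 2 and 3, against 2682 and 2546 CPM in healthy 1 and 2. The H2-K1 row held 43.6, 46.0 and 50.9% of the counts of the 6 heavy chain rows in HCC 1, 2 and 3. In healthy 1 it held 71.0% (95% Wilson interval 69.9 to 72.1%) and in healthy 2 33.3% (32.1 to 34.5%). H2-D1 held 35.7, 39.1 and 32.6% in HCC 1, 2 and 3, against 14.5% (13.7 to 15.4%) in healthy 1 and 44.7% (43.4 to 45.9%) in healthy 2. The intervals assume that each count is 1 read, which may not hold in healthy 1, where they may be too narrow. The gap between the healthy libraries is far wider than these intervals and wider than that among the HCC libraries. The part of the shared sequence in this was not tested.

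**Figure D3:**
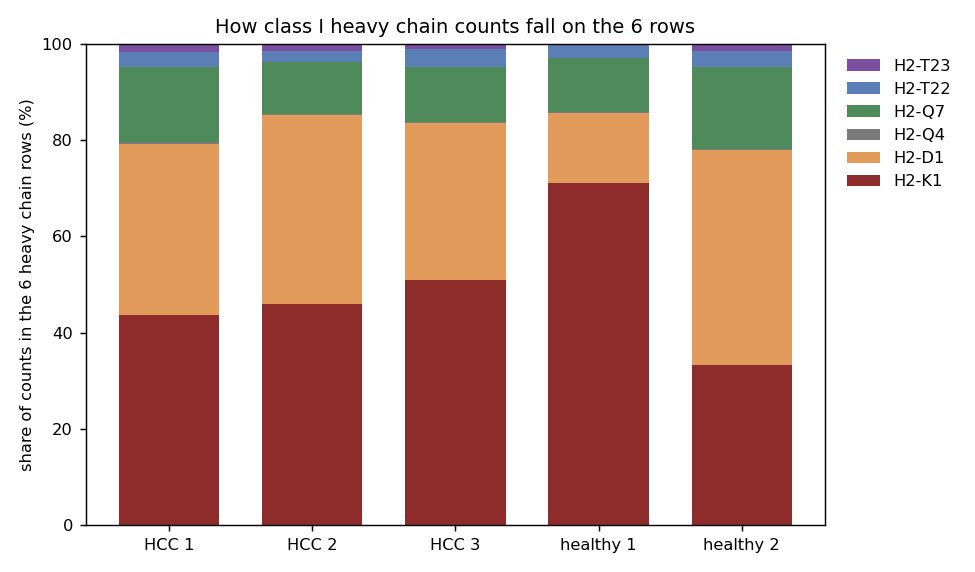
Share of the counts of the 6 class I heavy chain rows that fell on each row, in percent, for the 3 HCC libraries and the 2 healthy libraries. H2-K1 took 43.6 to 50.9% in HCC libraries, 71.0% in healthy 1 and 33.3% in healthy 2, and H2-D1 took most of the difference.

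The 6 heavy chain rows summed to 3622, 3973 and 3496 CPM in HCC 1, 2 and 3, against 3134 and 3264 CPM in healthy 1 and 2. On this scale the 3 HCC sums exceeded both healthy sums. After TMM scaling the sums were 3486, 3548 and 3497 CPM in HCC 1, 2 and 3 and 3778 and 3149.8 CPM in healthy 1 and 2, and the groups overlapped. When all class I heavy chain rows were added to 1 row before the test, its log2 fold change was 0.03 (SE 0.32, 95% interval -0.69 to 0.75, unadjusted p = 0.934 in edgeR).

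Of the non-classical genes, H2-Q7 (chromosome 17, 35439155 to 35443773, plus strand) encodes a chain of the Qa-2 antigen. It was at 565, 425 and 400.2 CPM in HCC 1, 2 and 3, against 348 and 555 CPM in healthy 1 and 2. The healthy values nearly spanned the HCC range, and the log2 fold change was -0.11 (SE 0.35). H2-Q4 (chromosome 17, 35379617 to 35385290, plus strand) was low, with 22, 22 and 14 counts in HCC 1, 2 and 3, against 24 and 9 counts in healthy 1 and 2 (log2 fold change 0.19, SE 0.79). An antisense gene on the H2-Q4 locus, Gm11131, held 50, 55 and 59 counts in HCC 1, 2 and 3, against 80 and 29 counts in healthy 1 and 2, and whether the counting used strand is not given in the sources used here. Without strand the reads of the pair cannot be told apart.

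H2-T22 (chromosome 17, 36037128 to 36042747, minus strand), whose product is a ligand of some gamma delta T cell receptors, had the log2 fold change nearest to 0 of the 10 genes. It was at 113, 91.9 and 132 CPM in HCC 1, 2 and 3, against 91.7 and 109.8 CPM in healthy 1 and 2. Healthy 1 lay just under the lowest HCC value and healthy 2 inside the HCC range, with a log2 fold change of -0.01 (SE 0.37, 95% interval -0.84 to 0.82). H2-T23 (chromosome 17, 36029773 to 36032855, minus strand) encodes Qa-1, which shows leader peptides of class I heavy chains to the CD94/NKG2 receptors of NK cells. It was at 60.9, 58.8 and 38.2 CPM in HCC 1, 2 and 3, against 1.35 CPM (3 counts, exact 95% Poisson interval 0.278 to 3.94 CPM) in healthy 1 and 48.3 CPM (88 counts) in healthy 2. The Poisson interval assumes that each count is 1 read, which may not hold in healthy 1. Healthy 1 alone was near 0, and healthy 2 lay inside the HCC range. Of all genes tested, 95.7% differed less between the 2 healthy libraries. The log2 fold change was 1.04 (SE 0.91) with all libraries and 0.09 without healthy 1. Without healthy 2 it was 4.93 and passed (adjusted p = 0.0193 in edgeR), in a fit where healthy 1 is the only healthy library and is assumed to vary like the HCC libraries. That comparison called 2.01% of 9755 genes.

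B2m, on chromosome 2 (122147686 to 122153083, mm10, plus strand), encodes the light chain common to all class I molecules and to CD1d. It was at 3333, 3979.7 and 3728 CPM in HCC 1, 2 and 3, against 2355 and 2815 CPM in healthy 1 and 2. The groups did not overlap. After TMM scaling B2m was at 3208, 3554 and 3729 CPM in HCC 1, 2 and 3, against 2839 and 2716 CPM in healthy 1 and 2, again without overlap (10.6% of all genes were placed so after TMM scaling and 8.44% the other way round). The group means were 3680.2 ± 326 CPM in HCC and 2585 ± 325 CPM in healthy libraries (SD, n = 3 and n = 2). The log2 fold change was 0.33 (SE 0.33, 95% interval -0.40 to 1.06, unadjusted p = 0.333 in edgeR), so the data leave room for a fold between 0.76 and 2.09. It was 0.29 to 0.40 when any 1 library was left out, the narrowest range among the 10 genes.

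The heavy chain rows and B2m did not keep a fixed proportion. Counts of the 6 heavy chain rows per B2m count were 1.09, 0.998 and 0.938 in HCC 1, 2 and 3, against 1.33 and 1.16 in healthy 1 and 2. The ratio is taken within a library and does not depend on scaling, and all HCC values lay below both healthy values. The ratio was not tested, and no share of other ratios placed so was taken. B2m, which divides it, was itself higher in all HCC libraries.

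The peptide transporter genes lie next to each other on chromosome 17 (Tap1 at 34187553 to 34197225 and Tap2 at 34203527 to 34216321, mm10). Tap2 was at 110.5, 133 and 99.8 CPM in HCC 1, 2 and 3, against 22.5 and 96.1 CPM in healthy 1 and 2. The HCC libraries lay above both, but HCC 3 exceeded healthy 2 by little. The log2 fold change was 0.85 (SE 0.51, 95% interval -0.29 to 2.00), 0.22 without healthy 1 and 2.05 without healthy 2, where it passed (adjusted p = 0.0431 in edgeR) with healthy 1 as the only healthy library. Tap1 was at 125, 85.0 and 115 CPM in HCC 1, 2 and 3, against 165 and 119 CPM in healthy 1 and 2. HCC 1 lay between the healthy libraries and HCC 2 and 3 below both. Its log2 fold change was -0.60 (SE 0.40, 95% interval -1.49 to 0.29) and -0.16 without healthy 1. Tap1 and Tap2 form 1 transporter, and their counts stood at ratios of 1.13, 0.640 and 1.15 in HCC 1, 2 and 3, against 7.32 in healthy 1 and 1.24 in healthy 2. Healthy 1 was again the library apart. Tap1 overlaps Psmb9, an immunoproteasome subunit, by 212 bases on the other strand.

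Tapbp (chromosome 17, 33915899 to 33929292, plus strand) encodes tapasin, which bridges TAP and the empty heavy chain. It was at 479, 518 and 504 CPM in HCC 1, 2 and 3, against 583 and 408 CPM in healthy 1 and 2. The 3 HCC libraries lay close together and between the healthy libraries. The log2 fold change was -0.20 (SE 0.37), 0.27 without healthy 1 and -0.51 without healthy 2. Zbtb22, which overlaps Tapbp on the same strand, held 18 to 47 counts per library, and Tapbp 743 to 1296.

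**Figure D4:**
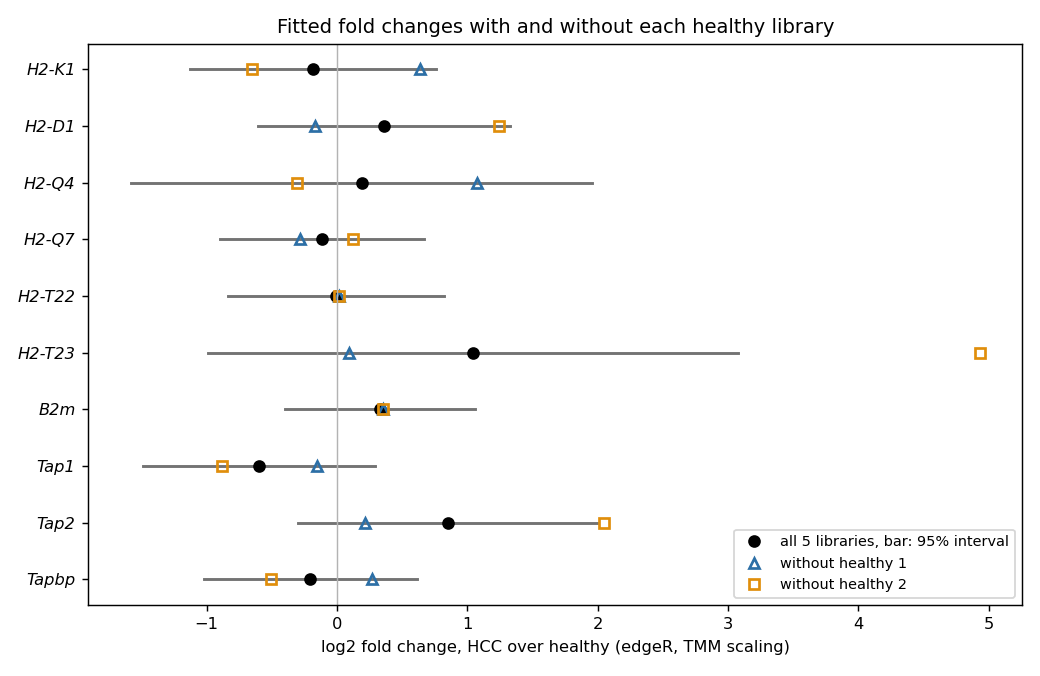
Fitted log2 fold changes of HCC over healthy (edgeR, TMM scaling) for the 10 genes with all 5 libraries (black, bars are 95% intervals), without healthy 1 (triangles) and without healthy 2 (squares). All intervals include 0, B2m stays at 0.33 to 0.36 in the 3 fits, and H2-T23 moves between 0.09 and 4.93.

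The spread within each group was set beside that of all genes tested. Between healthy 1 and healthy 2 the median absolute log2 difference was 0.85 for the 10 members and 0.97 for all 8468 genes (0.5 counts added). Between pairs of HCC libraries it was 0.18 to 0.42 for the members and 0.54 to 0.63 for all genes. The largest member difference between any 2 HCC libraries was 0.77, against 4.95 between the healthy libraries, in H2-T23. Of the 10 members, 2 had all HCC values above the healthy ones and 0 below. Without healthy 1 there were 5 above and 0 below (24.2% and 23.3% of all genes). Without healthy 2 there were 6 above and 3 below (45.7% and 20.9% of all genes). Without HCC 1 there were 2 above and 1 below (20.4% and 9.81% of all genes), without HCC 2 there were 3 above and 0 below (17.7% and 10.1% of all genes), and without HCC 3 there were 4 above and 0 below (20.9% and 9.83% of all genes). B2m and Tap2 were among those above in each case. In the edgeR fit without healthy 1, 0 of 10 members were called (0% of all genes), with 0 of 10 at an unadjusted p under 0.05 (3.84% of all genes). Without healthy 2, 2 of 10 were called (2.01% of all genes), with 4 of 10 at an unadjusted p under 0.05 (21% of all genes).

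The rest of the pathway was described from lists of related genes. Of 21 other class I and class I-like genes, 18 had a row and 6 passed the filter on low counts, 0 of them called, with 3 positive and 3 negative log2 fold changes. Their summed level was 64.8 to 81.2 CPM in HCC and 39.6 and 52.1 CPM in healthy libraries. H2-T10 was at 19.0, 14.5 and 13.3 CPM in HCC 1, 2 and 3, against 9.44 and 21.4 CPM in healthy 1 and 2. H2-Q10 encodes a secreted class I molecule made by mouse hepatocytes, and it was at 6.53, 6.98 and 37.2 CPM in HCC 1, 2 and 3, against 5.84 and 3.29 CPM in healthy 1 and 2. H2-M3, which presents N-formylated peptides, was at 8.71, 15.7 and 11.1 CPM in HCC 1, 2 and 3, against 4.95 and 9.33 CPM in healthy 1 and 2. Of 14 hepatocyte markers 13 had a row, and they summed to 65.8, 283 and 611 CPM in HCC 1, 2 and 3, against 50.8 and 56.0 CPM in healthy 1 and 2. Albumin mRNA (Alb) stood at 7.07, 58.8 and 199 CPM in HCC 1, 2 and 3, against 3.60 and 18.1 CPM in healthy 1 and 2. HCC 3 was highest in both H2-Q10 and these markers, whereas HCC 1 and HCC 2 differed in the markers and hardly in H2-Q10. The part of hepatocyte RNA in these values was not tested.

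Of 10 genes for chaperones, trimming peptidases and the translocon, all were tested and 0 called, with 4 positive and 6 negative log2 fold changes and a median of -0.06. Hspa5, the chaperone BiP, was at 686, 538 and 562 CPM in HCC 1, 2 and 3, against 403 and 531 CPM in healthy 1 and 2. Calr, which encodes calreticulin of the loading complex, was at 361, 245 and 274 CPM in HCC 1, 2 and 3, against 278 and 215 CPM in healthy 1 and 2. Sec61g, a translocon subunit, was at 369, 304 and 354 CPM in HCC 1, 2 and 3, against 344 and 269 CPM in healthy 1 and 2. Of 5 genes of the immunoproteasome and its activator, which cut peptides that suit class I, 0 were called and the median was 0.11. Psmb8 was at 393, 267 and 296 CPM in HCC 1, 2 and 3, against 286 and 339 CPM in healthy 1 and 2. Psmb10 was at 262, 216 and 282 CPM in HCC 1, 2 and 3, against 377 and 216 CPM in healthy 1 and 2. Psme2 reached 532 CPM in HCC 3 and was at 164 and 142 CPM in HCC 1 and 2, against 148 and 136 CPM in healthy 1 and 2. In both lists the groups of most genes overlapped. All HCC values lay above the healthy ones in 1 of 10 and 0 of 5 genes, where 12.8% of all genes tested did. They lay below in 0 genes of either list, where 5.46% of all genes did.

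Of 17 regulators of class I promoters, 14 were tested, 0 called, and 11 had a positive log2 fold change, with a median of 0.40, where 4258 of all 8468 genes tested were positive. In 4 of them the HCC values exceeded both healthy values and in 1 they lay below, where 12.8% and 5.46% of all genes did. Irf1, an interferon-induced activator of class I genes, was at 204, 294 and 160.3 CPM in HCC 1, 2 and 3, against 36.9 and 125 CPM in healthy 1 and 2. The groups of Irf1 did not overlap, and the log2 fold change was 1.32 (SE 0.49, unadjusted p = 0.0226, adjusted p = 0.9999 in edgeR). Irf9, a factor of the interferon response, was at 79.4, 101 and 153 CPM in HCC 1, 2 and 3, against 47.7 and 67.0 CPM in healthy 1 and 2 (log2 fold change 0.80, SE 0.43). Nlrc5, named after its values were seen because it is the class I transactivator, had 22, 17 and 11 counts in HCC 1, 2 and 3, against 0 and 22 counts in healthy 1 and 2.

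Cells that carry much class I could enter a sort, and their markers were counted in each group. B cell and dendritic cell markers, 11 of 11 with a row and 2 at 0 throughout, summed to 45.2 to 184 CPM in HCC and 31.02 and 82.9 CPM in healthy libraries. H2-Eb1, a class II chain, was at 20.7, 60.5 and 37.7 CPM in HCC 1, 2 and 3, against 3.60 and 15.9 CPM in healthy 1 and 2, and its groups did not overlap (unadjusted p = 0.0211, adjusted p = 0.9999 in edgeR). Of the markers tested, 1 of 6 lay above and 0 below, where 12.8% and 5.46% of all genes did. The class II chains H2-Aa and H2-Ab1 overlapped. H2-Aa was at 15.8, 35.5 and 22.8 CPM in HCC 1, 2 and 3, against 7.19 and 28.5 CPM in healthy 1 and 2. H2-Ab1 was at 2.18, 25.6 and 13.8 CPM in HCC 1, 2 and 3, against 0 and 14.8 CPM in healthy 1 and 2. Of the 6 markers tested 5 had a positive log2 fold change and 1, Cd79a, a negative one. Cd79a was at 0, 6.40 and 0 CPM in HCC 1, 2 and 3, against 1.35 and 6.04 CPM in healthy 1 and 2, and Cd74 was at 4.35, 32.0 and 15.4 CPM in HCC 1, 2 and 3, against 9.44 and 5.49 CPM in healthy 1 and 2. Macrophage and Kupffer cell markers, 10 of 10 with a row and 1 at 0 throughout, summed to 11.1 to 33.8 CPM in HCC and 43.2 and 8.78 CPM in healthy libraries. In healthy 1 the sum came mostly from Marco, at 0 CPM in all HCC libraries and 21.6 and 1.10 CPM in healthy 1 and 2, and from C1qa, at 3.27, 0 and 0.531 CPM in HCC 1, 2 and 3, against 13.0 and 0 CPM in healthy 1 and 2. Clec4f was at 0 to 1.63 CPM in HCC and 0 CPM in both healthy libraries, and Lyz2 at 5.99, 33.8 and 5.31 CPM in HCC 1, 2 and 3, against 0 and 7.68 CPM in healthy 1 and 2. The part of macrophage RNA in the values of healthy 1 was not tested. H2-Eb1, H2-Aa, H2-Ab1, Cd3d, Klrb1c, Marco, C1qa and Lyz2 were named after their values were seen. Endothelial markers, 6 of 6 with a row and 3 at 0 throughout, summed to 1.75 to 3.18 CPM in HCC and 0 and 0.549 CPM in healthy libraries. Red cell markers, 5 of 5 with a row, summed to 7389.9 to 17083 CPM in HCC and 2975 and 2787 CPM in healthy libraries, with Hbb-bs at 1333, 3683 and 1961 CPM in HCC 1, 2 and 3, against 241 and 478 CPM in healthy 1 and 2. HCC 2, which had the highest B2m in CPM of the table total, also had the highest sums of red cell and of B cell and dendritic cell markers. After TMM scaling B2m was highest in HCC 3, at 3729 CPM, against 3554 CPM in HCC 2. The part of red cells, B cells and dendritic cells in the values of B2m was not tested.

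Genes whose pattern over the 5 libraries was most like that of a member were taken from 729 genes averaging 100 CPM or more, by the root mean square difference of centred log2(CPM + 1). Nearest to H2-K1 were Psmd13 (0.0732), Vasp (0.102) and Laptm5 (0.104), and nearest to B2m were Eif4b (0.0940), Igtp (0.106) and Atp5d (0.116). Laptm5 was at 1586, 1856 and 1813 CPM in HCC 1, 2 and 3, against 2391 and 1326 CPM in healthy 1 and 2. Igtp encodes a GTPase induced by interferon. It stood at 148, 167 and 175 CPM in HCC 1, 2 and 3, against 95.3 and 106 CPM in healthy 1 and 2. With 5 libraries such likeness is a description only.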

How the data were processed

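Libraries of 3' mRNA (a QuantSeq kit for Ion Torrent, per the labels' protocols) were made from sorted hepatic iNKT cells of livers, giving 3 HCC and 2 healthy libraries. The deposited values are whole numbers per Ensembl gene ID, and all fits treated them as raw counts. In healthy 1 the low values of the genes listed here fell on spaced steps, such as 3, 5, 8, 11, 13, 16, 19, 21, 24, 27 and 29. None of these genes had 1, 2 or 4 there, whereas each other library held a value of 1. The healthy 1 values may therefore not be raw counts. Its H2-T23 value of 3 was the lowest step and may stand for 1 read. Its total of 2224356 may overstate its depth. Healthy 1 had the fewest genes with a count, 10861, against 11822 to 13229 in the other libraries. Results that turn on this library, such as H2-T23 and Tap2 without healthy 2, are less certain. Whether the values were scaled was not tested. Per the submitters' processing notes the build was mm10, and the tools named are edgeR, limma, DESeq, DESeq2, HISAT2, Bowtie2 and bcl2fastq, without roles or versions. The strand setting, the annotation and the program used for counting are not given in the sources used here.

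Symbols and positions came from GENCODE M21 (GRCm38, the mm10 assembly). CPM was taken from each table's own total. Counts were tested in R 4.3.3 with edgeR 4.0.16 (filterByExpr by group, 8468 genes kept, TMM, quasi-likelihood test for HCC over healthy across all genes, Benjamini-Hochberg, threshold 0.05), a script tested on simulated data. Intervals of fold changes are 95% intervals of that fit. The counts of reads are not counts of molecules. Alternatives were other scalings and filters, DESeq2 1.42.0, limma-voom (limma 3.58.1), a replicate block, HCC 2 and HCC 3 summed, heavy chain rows summed, and leaving out each library.

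The members and lists were chosen with earlier results of these data known. Named were all members, the 3 most abundant genes of each pathway list (and any called), set markers and the look-alikes. A gene that this rule names is not reported here. Same-numbered libraries did not deviate together in both pairs (r = -0.00026 and 0.116), so the numbers were not taken to pair libraries. This check cannot exclude a shared batch, because deviations of 2 healthy libraries from their mean mirror each other. Klrb1c did follow the numbers in both groups.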

Additional observations from a re-analysis of the deposited data

How the results depend on the processing

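The 10 members were computed under 16 alternatives, fewer for heavy chain rows that were summed, and 2 of the 154 values passed the test, H2-T23 and Tap2 without healthy 2. Of the rest, 139 kept their sign and 13 changed it. Library totals in place of TMM moved the median log2 fold change of all genes to 0.16 and that of the members to 0.30, and turned H2-K1 to 0.062, H2-Q7 to 0.038, H2-T22 to 0.16 and Tapbp to 0.015. H2-T22 was at 0.041 with no filter on low counts. With HCC 2 and HCC 3 summed to 1 library, 0 of 10 members and 0 of 8314 genes were called, with B2m at 0.31 and Tap2 at 0.85. When 1 library was left out, H2-K1 ranged over -0.65 to 0.64, H2-D1 over -0.17 to 1.25, H2-Q4 over -0.31 to 1.07, H2-Q7 over -0.29 to 0.13, H2-T22 over -0.17 to 0.16 and Tapbp over -0.51 to 0.27. The members called then numbered 0 to 2, those not overlapping between groups 3 to 9 (chosen after seeing the data) and all genes called 0 to 196. All genes called numbered 53 with no filter on low counts, 8 with DESeq2 and 3 with the replicate block, against 0 as reported. Under that block B2m was at 0.28, Tap2 at 1.14 and H2-T23 at 2.18 (unadjusted p = 0.595, 0.0547 and 0.00685, adjusted p = 0.9999 for each in edgeR). In that fit 276 of 8468 genes had an unadjusted p under 0.05. The median of the other class I genes ranged over 0.20 to 0.76, of the loading genes over -0.13 to 0.10, of the immunoproteasome over -0.11 to 0.36 and of the regulators over 0.23 to 0.79 without 1 library. The loading genes were at 0.16 with library totals and 0.087 with the replicate block. The cause of these moves was not tested. Depth limits H2-Q4, at 9 to 24 counts a library, and H2-T23 in healthy 1, at 3 counts.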
